A study of Rattus norvegicus with 9 samples.

Results

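The genes described here supply the choline and ethanolamine used to build membrane phospholipids in the rat spinal cord. They are 10 of the 34890 loci in the expression table, taken by gene symbol: the choline transporter-like genes Slc44a1, Slc44a2 and Slc44a5, the choline kinase gene Chka and cytidylyl transferase gene Pcyt1a, the ethanolamine kinase genes Etnk1 and Etnk2 and cytidylyl transferase gene Pcyt2, the shared phosphotransferase gene Cept1, and Etnppl, which breaks down phosphoethanolamine. RNA came from the L3-L6 spinal cord of wild-type male Sprague Dawley rats, on the injured side, in 3 groups of 3 samples. JA rats had a sham operation and oral saline. SNI rats had spared nerve injury, a neuropathic pain model in which the tibial and common peroneal nerves are tied and cut and the sural nerve is left intact, and also received saline. PLM rats had the same injury and received paeoniflorin at 20.65 mg/mL with liquiritin by mouth; the labels give the liquiritin as 3.98, 3.99 and 3.100 mg/mL in replicates 1, 2 and 3. The methods of the study give a single dose for the whole group, so the labels may not mean that the samples differed in dose. There was no sham group given the drugs, so their effect without injury was not analysed here, and the cord tissue mixes all its cell types.

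Phosphatidylcholine and phosphatidylethanolamine are the most abundant phospholipids of animal membranes, and the nervous system makes them mainly through the Kennedy pathway. Choline or ethanolamine is phosphorylated by a kinase, activated by a cytidylyl transferase to its CDP form, and joined to diacylglycerol by a phosphotransferase. Pcyt1a and Pcyt2 hold the steps that usually limit the rate of the choline and ethanolamine branches, and Cept1 serves both branches. Etnppl, a lyase found mainly in astrocytes within the nervous system, removes phosphoethanolamine before the cytidylyl transferase can use it.

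The table does not name its unit. Values were read as TPM, a length-scaled share of the transcripts in a sample, because every sample summed to 1000000 and the table came from StringTie, which reports TPM. Levels are compared between genes on that reading. TPM carries no read number, and the depth of each sample is unknown. Differences are log2 fold changes of TPM + 1, and the added 1 makes the change of low genes such as Etnppl look smaller. A gene was called at a Benjamini-Hochberg adjusted p under 0.05 over all loci tested by limma. The 10 genes were chosen by their role in the pathway while their TPM differences between the groups, in particular those of Etnppl and Slc44a5 between PLM and SNI, were already known, so their calls describe the genes and do not test the choice. Nothing in the labels links samples across groups or gives the number of rats in a sample, and the p-values measure the spread between these samples only.

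The samples differed in ways that touch these genes. Mitochondrial protein genes took 23.7% to 26.1% of the TPM in SNI, 31.3% to 32.8% in PLM and 25.3% to 32.8% in JA, and the sample medians of log2(TPM + 1) were 3.47 to 3.53 in SNI, 3.18 to 3.30 in PLM and 3.30 to 3.46 in JA. The differences in the 10 genes and in the named pathway genes are therefore also given median-centred, that is, after each sample was shifted to the same median. Oligodendrocyte, neuron, astrocyte and microglial markers were present in every sample. The summed Schwann cell markers, which mark peripheral nerve roots, ran from 125 to 7595 TPM and were highest in JA replicate 3, SNI replicate 2 and PLM replicate 3 within their groups. In bulk RNA, fewer cells of a type and less RNA per cell cannot be told apart.

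The regions just upstream of the starts of 4 genes are shown because, in PLM against SNI, Etnppl and Slc44a5 had the largest difference in each direction and Chka and Pcyt2 the smallest standard errors among the genes called. They are the 250 bases before the RefSeq start in the GRCr8 build, 5′ to 3′ on the strand of the gene, with capitals marking a GC box (GGGCGG on either strand) or a CCAAT box (CCAAT on either strand). Etnppl lies at chr2:221846960-221847209 on the plus strand (the farthest upstream of its 3 starts), Slc44a5 at chr2:245801741-245801990 on the plus strand, Chka at chr1:210505865-210506114 on the plus strand, and Pcyt2 at chr10:106394469-106394718 on the minus strand.
Etnppl: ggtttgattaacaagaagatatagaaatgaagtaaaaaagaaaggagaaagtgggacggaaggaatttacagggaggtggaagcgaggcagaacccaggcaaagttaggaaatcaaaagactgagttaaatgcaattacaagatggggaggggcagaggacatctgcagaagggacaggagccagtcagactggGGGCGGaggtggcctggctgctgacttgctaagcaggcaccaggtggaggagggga
Slc44a5: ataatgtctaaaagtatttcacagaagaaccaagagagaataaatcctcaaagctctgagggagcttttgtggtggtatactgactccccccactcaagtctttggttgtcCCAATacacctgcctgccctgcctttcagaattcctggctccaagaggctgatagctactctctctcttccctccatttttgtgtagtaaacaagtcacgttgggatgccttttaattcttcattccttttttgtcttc
Chka: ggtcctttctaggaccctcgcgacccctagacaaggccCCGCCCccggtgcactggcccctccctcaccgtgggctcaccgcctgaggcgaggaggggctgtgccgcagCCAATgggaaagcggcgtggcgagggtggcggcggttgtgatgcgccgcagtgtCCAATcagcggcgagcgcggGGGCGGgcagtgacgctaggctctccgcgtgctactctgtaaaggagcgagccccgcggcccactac
Pcyt2: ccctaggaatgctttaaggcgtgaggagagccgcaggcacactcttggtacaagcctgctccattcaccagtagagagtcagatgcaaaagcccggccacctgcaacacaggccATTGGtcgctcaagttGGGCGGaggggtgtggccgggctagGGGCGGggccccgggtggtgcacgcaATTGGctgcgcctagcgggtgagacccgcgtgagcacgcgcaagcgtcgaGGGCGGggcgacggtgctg
The windows of Chka and Pcyt2 were GC-rich (70.8% and 65.6% G or C) and held both motifs, with 2 GC boxes and 2 CCAAT boxes for Chka and 3 and 2 for Pcyt2. The Etnppl window held 1 GC box and no CCAAT box, and the Slc44a5 window (43.2%) held 1 CCAAT box and no GC box. All 10 genes matched RefSeq, with 12 windows in all because Etnppl has 3. A GC box was in 8 of the 12, against 30.5% of all 33469 windows of this length, and a CCAAT box in 6 of the 12, against 34%. Neither a TATA box (TATAAA, in 12.9% of all windows) nor an E-box (CACGTG, 5.59%), searched on both strands, was in any of the 12. These matches describe the letters only.

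**Figure D1:**
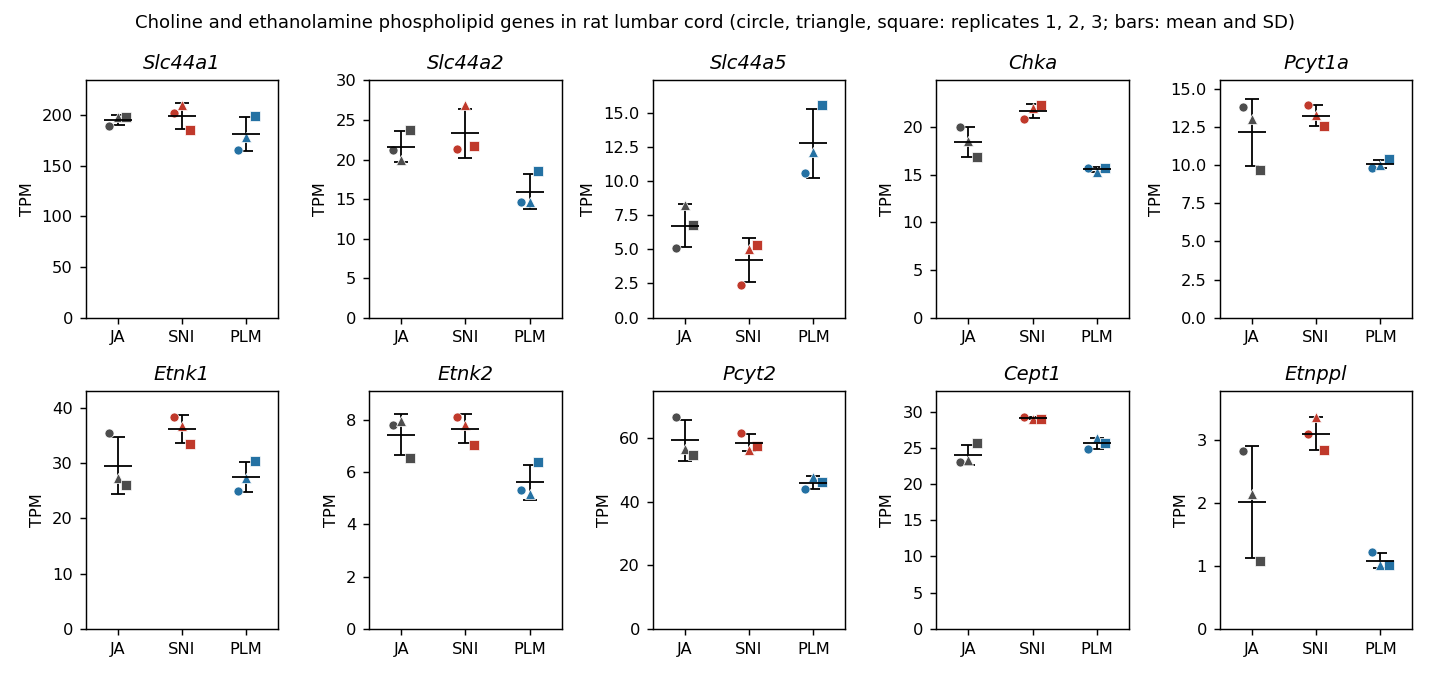
TPM of the 10 genes in each sample of JA, SNI and PLM, with the mean and SD of each group of 3; every vertical axis starts at 0 and has its own scale. The PLM samples of Chka (15.26 to 15.74 TPM) lie under all SNI samples (20.85 to 22.28 TPM), and those of Slc44a5 (10.58 to 15.55 TPM) over all SNI samples (2.35 to 5.29 TPM).

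The order of the levels was nearly the same in every group. Slc44a1, a broadly expressed choline transporter, was the highest by far, with 195 ± 5.06, 199 ± 12.5 and 181 ± 17.0 TPM in JA, SNI and PLM (mean ± SD of 3 samples). Pcyt2 came next (59.3 ± 6.47, 58.5 ± 2.71 and 45.9 ± 1.97 TPM), followed by Etnk1 (29.5 ± 5.10, 36.2 ± 2.51 and 27.5 ± 2.72 TPM). Below them stood Cept1, Slc44a2, Chka, Pcyt1a and Etnk2, and Etnppl was the lowest in all 3 groups. Neighbours that overlapped in their samples were Cept1 with Slc44a2, Slc44a2 with Chka, and Etnk2 with Slc44a5 in JA; Slc44a2 with Chka and Slc44a5 with Etnppl in SNI; and Etnk1 with Cept1, Slc44a2 with Chka, and Chka with Slc44a5 in PLM. The single change of place was that of Slc44a5, ninth in JA and SNI and seventh in PLM, above Pcyt1a and Etnk2. The spread among samples was largest for Etnppl in JA (coefficient of variation 44.0%) and Slc44a5 in SNI (38.5%), and the medians over the 10 genes were 10.7% in JA, 6.60% in SNI and 9.61% in PLM.

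The comparison of PLM with SNI asks what the drugs changed in injured cord. In the deposited values most genes of both the choline and the ethanolamine branch were lower in PLM: Chka, Pcyt1a and Slc44a2 on the choline side, Etnk1 and Pcyt2 on the ethanolamine side, and Etnppl. Slc44a5 alone was higher. Of the 10 genes, 7 were called, 6 lower and 1 higher, where 13.9% of the 15474 loci tested were called (13.6% lower and 0.246% higher). Apart from Etnppl and Slc44a5, the adjusted p of the called genes lay between 0.0132 and 0.0466 (limma). Most of the table moved the same way: 85.0% of loci had a negative log2 fold change and their median was -0.21, against a median of -0.37 over the 10 genes, of which 9 were negative and 7 lay below the median of all loci. The PLM and SNI samples did not overlap for 9 of the 10 genes (8 lower), and for 43.5% of all loci. After median-centring none of the 10 was called, where 0.814% of loci were, and 3 had an unadjusted p under 0.05 (Etnppl and Chka lower, Slc44a5 higher) against 16.9% of loci. The centred groups did not overlap for 5 of the 10, Etnppl, Pcyt1a, Chka and Pcyt2 lower and Slc44a5 higher, against 24.2% of 15503 loci. Cell type markers were mixed in PLM against SNI. Beside the astrocyte markers described with Etnppl, all 6 Schwann cell markers (median log2 fold change -0.66, centred -0.41) were negative, none of them called. So were all 4 matched fibroblast and meningeal markers (-0.61, centred -0.36), again with none called. Of 5 motor neuron markers tested, 4 were negative, and 1 was called as deposited (-0.49, centred -0.24). Neuron markers were near the median of all loci (-0.22, centred 0.02). The medians of oligodendrocyte (-0.10, centred 0.15), endothelial (0.10, centred 0.35), microglial (0.03, centred 0.28) and ependymal markers (-0.14, centred 0.11) lay above it. The part of any cell type in these differences was not tested. The count of 7 also rested on all 6 samples: it was 1, 0 and 2 without PLM replicate 1, 2 and 3, and 2, 4 and 3 without SNI replicate 1, 2 and 3, where 1.78% to 9.70% of all loci were called. Without the sample of each group that had the most Schwann cell marker TPM it was 0, against 0.0782% of loci, and 9 of 10 log2 fold changes were still negative, as in the full set.

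Among the transporters, the 3 genes of 1 family took different paths. Slc44a1 had 189.31, 197.9 and 198.25 TPM in JA replicates 1, 2 and 3, 202.47, 209.75 and 185.4 in SNI, and 165.83, 178.59 and 199.41 in PLM. The groups overlapped throughout, and PLM differed from SNI by -0.14 on the log2 scale (SE 0.09, limma adjusted p = 0.277), or by 0.11 (SE 0.07) when centred; the deposited value was -0.08 without PLM replicate 1 and -0.21 without PLM replicate 3.

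Slc44a2, a mitochondrial and plasma membrane choline transporter, had 21.22, 19.92 and 23.77 TPM in JA, 21.35, 26.87 and 21.66 in SNI, and 14.58, 14.68 and 18.5 in PLM. Every PLM sample was below every sample of both other groups. It fell by 0.52 on the log2 scale against SNI (SE 0.13, limma adjusted p = 0.0466). When centred the difference was -0.28 (SE 0.12), and PLM replicate 3 then reached into the SNI range.

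Slc44a5, a less studied member of the family, had 5.13, 8.25 and 6.8 TPM in JA, 2.35, 5.03 and 5.29 in SNI, and 10.58, 12.15 and 15.55 in PLM. All PLM samples were above all others, and JA and SNI overlapped. The log2 fold change against SNI was 1.44 (SE 0.27), with 0.511% of loci above it, and 1.68 (SE 0.27) when centred. It kept its sign without each sample in turn, from 1.14 without SNI replicate 1, the lowest SNI sample, to 1.60 without SNI replicate 3. As a share of the summed TPM of the 3 transporters, Slc44a5 was 2.38%, 3.65% and 2.97% in JA, 1.04%, 2.08% and 2.49% in SNI, and 5.54%, 5.91% and 6.66% in PLM. This share and the fold changes above are built from the same values that singled out Slc44a5 and describe them only. Slc44a1 was the bulk of the sum in every sample.

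In the choline branch, Chka, the kinase that traps choline in the cell as phosphocholine, had 19.95, 18.48 and 16.81 TPM in JA, 20.85, 21.98 and 22.28 in SNI, and 15.74, 15.26 and 15.64 in PLM. The 3 groups were fully apart, with SNI highest and PLM lowest. Chka fell by 0.46 in PLM against SNI (SE 0.06, limma adjusted p = 0.0132). When centred the difference was -0.21 (SE 0.07, limma adjusted p = 0.223), PLM still lay below SNI in every sample, and JA overlapped both SNI and PLM.

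Pcyt1a had 13.81, 13.06 and 9.68 TPM in JA, 13.95, 13.29 and 12.57 in SNI, and 9.85, 10.02 and 10.4 in PLM. JA replicate 3 was as low as PLM, the other JA samples were in the SNI range, and PLM lay below SNI throughout. Pcyt1a fell by 0.36 against SNI (SE 0.07, limma adjusted p = 0.0291), and the centred difference was -0.12 (SE 0.06).

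In the ethanolamine branch, Etnk1, the more abundant kinase, had 35.34, 27.25 and 25.92 TPM in JA, 38.37, 36.68 and 33.44 in SNI, and 24.94, 27.27 and 30.36 in PLM. JA replicate 1 was in the SNI range, the other JA samples were in the PLM range, and SNI and PLM did not overlap. It fell by 0.38 in PLM against SNI (SE 0.09, limma adjusted p = 0.0443), and the centred groups overlapped at -0.14 (SE 0.07).

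Etnk2, the second ethanolamine kinase, had 7.81, 7.94 and 6.52 TPM in JA, 8.12, 7.81 and 7.05 in SNI, and 5.32, 5.14 and 6.37 in PLM. PLM was below all samples of the other groups, which overlapped each other. The log2 fold change against SNI was -0.39 (SE 0.10, limma adjusted p = 0.0530), just outside the threshold, and -0.15 (SE 0.09) when centred. The share of Etnk2 in the summed TPM of the kinase pair, as mean and SD of 3 samples, was 17.5% ± 0.072 in SNI, 16.9% ± 0.933 in PLM and 20.3% ± 2.24 in JA.

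Pcyt2, which makes CDP-ethanolamine, had 66.73, 56.43 and 54.79 TPM in JA, 61.51, 56.3 and 57.59 in SNI, and 43.86, 47.77 and 46.21 in PLM. JA and SNI overlapped and PLM was below both. It fell by 0.34 against SNI (SE 0.06, limma adjusted p = 0.0274). The centred difference was -0.09 (SE 0.06), and the centred PLM samples still lay below all SNI samples.

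Cept1, which completes both phospholipids, had 23.1, 23.3 and 25.67 TPM in JA, 29.32, 28.95 and 29.05 in SNI, and 24.88, 26.35 and 25.64 in PLM. The SNI samples were close together and above all others, and JA and PLM overlapped. The log2 fold change of PLM against SNI was -0.18 (SE 0.06, limma adjusted p = 0.0777) as deposited and 0.07 (SE 0.06) when centred, so its sign depended on the scaling.

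**Figure D2:**
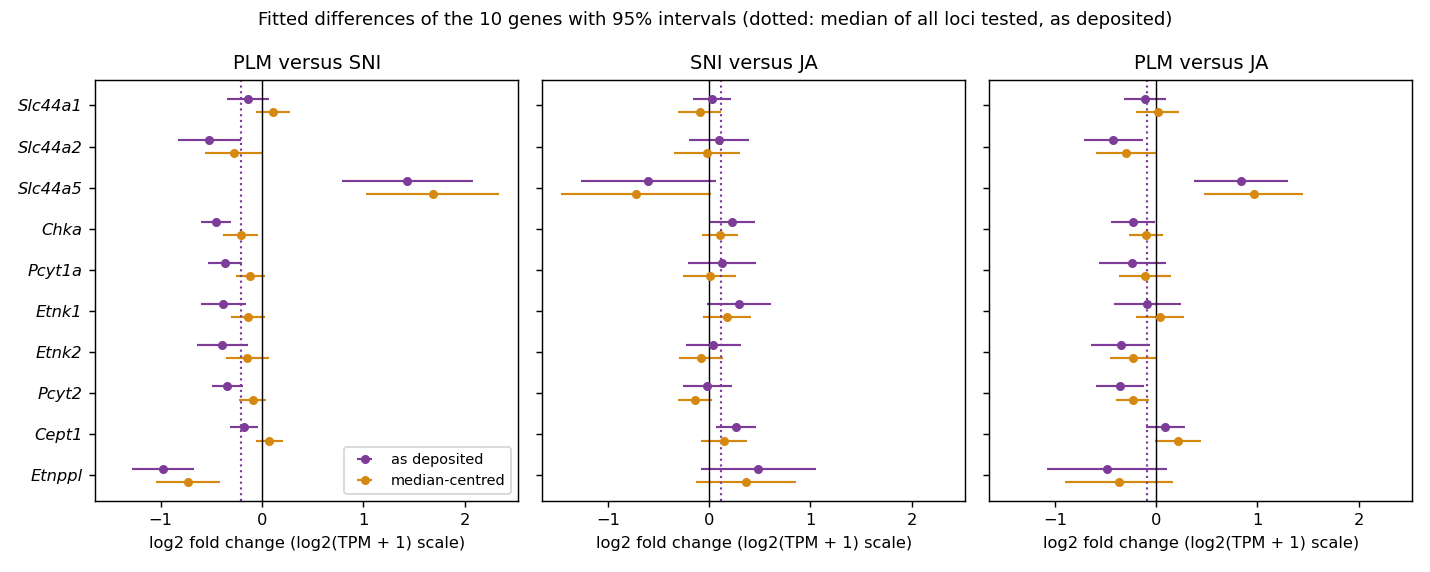
Log2 fold changes of the 10 genes with their 95% intervals in the 3 comparisons, as deposited and median-centred; the dotted line is the median of all loci as deposited. In PLM versus SNI, centring moves Slc44a1 from -0.14 to 0.11 and Cept1 from -0.18 to 0.07, Etnppl from -0.98 to -0.73 and Slc44a5 from 1.44 to 1.68.

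Etnppl, which cleaves phosphoethanolamine, had the largest decrease of the 10 in PLM. It had 2.83, 2.14 and 1.07 TPM in JA, 3.09, 3.37 and 2.84 in SNI, and 1.22, 1.01 and 1.02 in PLM. The lowest SNI sample was just above the highest JA sample, PLM was below SNI throughout, and JA replicate 3 lay within the PLM range. The log2 fold change of PLM against SNI was -0.98 (SE 0.13) as deposited, with 2.27% of loci below it, and -0.73 (SE 0.13) when centred. It stayed between -1.02 and -0.93 without each sample in turn. Set against the kinases that make its substrate, Etnppl came to 6.56, 6.08 and 3.30 TPM per 100 TPM of Etnk1 and Etnk2 in JA, to 6.65, 7.57 and 7.01 in SNI, and to 4.03, 3.12 and 2.78 in PLM. The rank, the range and this ratio are built from the same values that singled out Etnppl and describe them only.

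Markers of astrocytes moved with Etnppl. The sum of 11 astrocyte markers was 6464, 5527 and 4113 TPM in JA, 6559, 5900 and 5425 in SNI, and 3567, 3551 and 2996 in PLM. PLM was the lowest group, and JA replicate 3, the JA sample with the lowest Etnppl, also had the lowest sum of its group. All 11 markers had a negative log2 fold change in PLM against SNI as deposited, 10 of them called, with a median of -1.19; all 11 were still negative when centred, 7 of them called, with a median of -0.95. Per 1000 TPM of these markers, Etnppl was 0.438, 0.387 and 0.260 TPM in JA, 0.471, 0.571 and 0.524 in SNI, and 0.342, 0.284 and 0.340 in PLM. PLM was below SNI and overlapped JA by that ratio. The order depended on the measure: as log2(TPM + 1) of Etnppl minus the mean log2(TPM + 1) of the 11 markers, PLM lay at -4.60 to -4.44, above SNI at -4.88 to -4.71 and JA at -5.02 to -4.80, and with 0.1 added in place of 1, PLM (-5.38 to -5.19) overlapped SNI (-5.20 to -5.05) and JA (-5.54 to -5.29). The part of astrocyte content in the Etnppl difference is therefore not settled by these values.

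**Figure D3:**
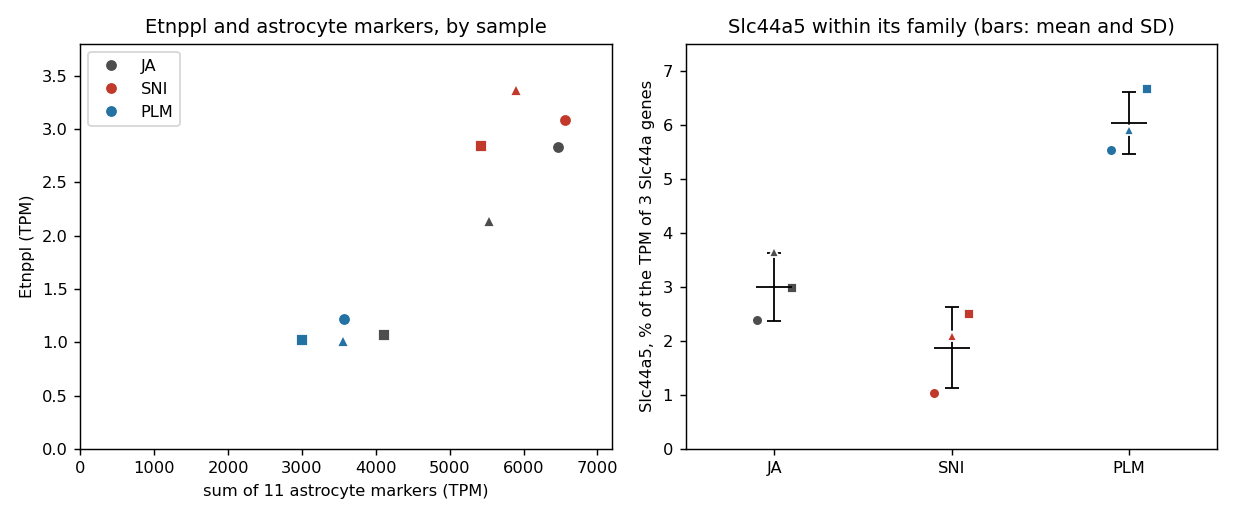
Left, Etnppl TPM against the summed TPM of 11 astrocyte markers in each sample; right, Slc44a5 as a percentage of the summed TPM of Slc44a1, Slc44a2 and Slc44a5, with the mean and SD of each group of 3. The 3 PLM samples and JA replicate 3 share the low end of the left panel, and the right panel shows PLM at 6.04% ± 0.571 against 1.87% ± 0.749 in SNI and 3.00% ± 0.636 in JA.

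The loci closest to Etnppl over the 9 centred samples, by the root mean square difference of their deviations on the log2 scale among 13952 loci, were Glud1 (0.0700), Amot (0.0717), Sparcl1 (0.0754) and Ampd3 (0.0772), where the deviations of Etnppl itself had a root mean square of 0.354. For Slc44a5 the closest was Ager at 0.356, against 0.761 for Slc44a5 itself, so no locus followed it closely. Likeness over 9 samples in 3 groups is a description of the pattern only.

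The comparison of SNI with JA asks what the injury changed. None of the 10 genes was called, and neither was any of the 15557 loci (0%; limma), as deposited or centred. At an unadjusted p under 0.05, Cept1 and Chka were higher in SNI, 2 of 10 against 7.10% of loci, and when centred none of the 10 was at that threshold, against 4.83% of loci. The SNI samples lay above all JA samples for Cept1, Chka and Etnppl, 3 of 10, against 12.1% of loci. The log2 fold changes were 0.27 for Cept1 (SE 0.08), 0.23 for Chka (SE 0.09), 0.49 for Etnppl (SE 0.24) and 0.30 for Etnk1 (SE 0.13), each with a limma adjusted p of 0.614. Slc44a5 went the other way at -0.60 (SE 0.28, limma adjusted p = 0.614). When centred these were 0.15 for Cept1, 0.11 for Chka, 0.37 for Etnppl, 0.17 for Etnk1 and -0.72 for Slc44a5. The Etnppl value was 0.24 without JA replicate 3, and the Slc44a5 value -0.31 without SNI replicate 1. The remaining 5 genes lay between -0.02 and 0.13, where the median of all loci was 0.12.

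The comparison of PLM with JA sets treated injured cord beside sham cord. It shares its PLM samples with the first comparison and its JA samples with the second, so the 3 are not independent. None of the 10 genes was called, where 0.0195% of 15349 loci were (3 loci; limma), and none was when centred, where 0.0130% of loci were. At an unadjusted p under 0.05 there were 5 of 10, Chka, Etnk2, Pcyt2 and Slc44a2 lower and Slc44a5 higher, against 11.8% of loci, and the groups did not overlap for the same 5, against 17.7% of loci. When centred, Pcyt2, Slc44a2 and Slc44a5 were left at that p, 3 of 10 against 9.98% of loci. Pcyt2 was -0.36 (SE 0.10, limma adjusted p = 0.342), Slc44a2 -0.42 (SE 0.12, limma adjusted p = 0.346) and Etnk2 -0.35 (SE 0.12, limma adjusted p = 0.386). Slc44a5 was 0.84 (SE 0.19, limma adjusted p = 0.331), and 0.96 (SE 0.20) when centred. When centred, Pcyt2 was -0.23, Slc44a2 -0.30 and Etnk2 -0.23. Etnppl, at -0.49 (SE 0.25; -0.36 when centred), had overlapping groups, and was -0.29 without JA replicate 1 and -0.74 without JA replicate 3. In the centred samples Pcyt2 was lower in PLM than in JA and lower in SNI than in JA without overlap, and Etnk2, Slc44a2 and Slc44a5 also kept their PLM and JA samples apart. These were 4 of 10 in PLM versus JA, against 16.3% of loci, and 1 of 10 in SNI versus JA, against 11.1%.

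Other genes of the same metabolism gave the setting. Of 39 further genes of choline and ethanolamine transport, synthesis, exchange and breakdown, 33 passed the level filter, and 12 were called in PLM versus SNI, all lower, against 13.6% of loci; their median log2 fold change was -0.36 and 30 of 33 were negative. None was called when centred, where 0.814% of loci were. By group, the calls were 2 of 3 transport genes (Slc5a7 and Flvcr1), 2 of 4 kinase, cytidylyl transferase and phosphotransferase genes (Pcyt1b and Chpt1), 3 of 4 genes of phosphatidylserine exchange, methylation and decarboxylation (Pisd, Ptdss1 and Ptdss2), 3 of 14 genes of choline or ethanolamine release and breakdown (Pnpla7, Pld1 and Pld2), 0 of 3 acetylcholine genes and 2 of 5 sphingomyelin genes (Smpd1 and Smpd3). The acetylcholine genes had differences of -0.62 to -0.37. The 12 became 0, 0 and 2 without PLM replicate 1, 2 and 3, and 2, 11 and 4 without SNI replicate 1, 2 and 3. In those fits 1.78% to 9.70% of all loci were called. Without the sample of each group with the most Schwann cell marker TPM the count was 0, against 0.0782% of loci.

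**Figure D4:**
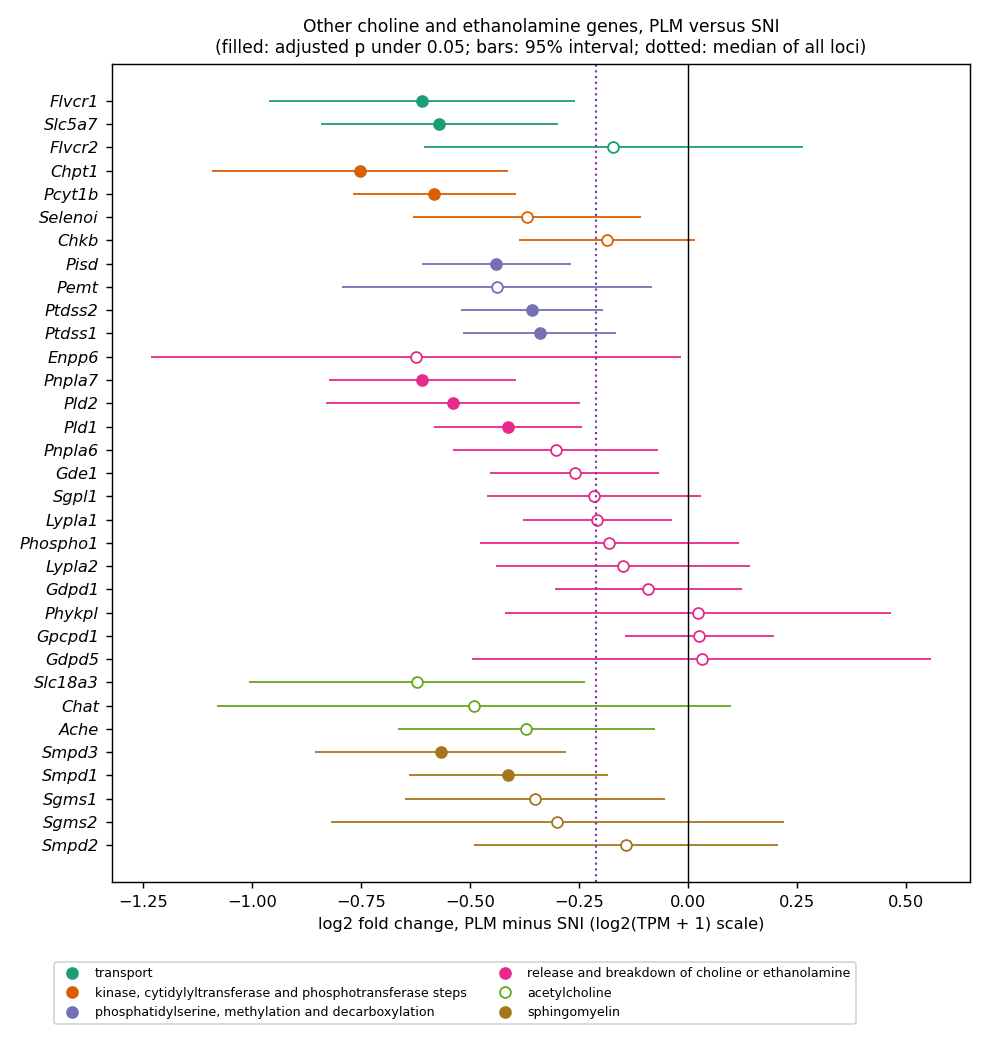
Log2 fold changes of PLM versus SNI with 95% intervals for the 33 other choline and ethanolamine genes tested, coloured by role, with filled points for an adjusted p under 0.05. The points centre on -0.36, left of the dotted median of all loci at -0.21.

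Pcyt1b, the second CTP:phosphocholine cytidylyl transferase gene, had the smallest p-value of this list in PLM versus SNI. It had 15.82, 12.24 and 10.27 TPM in JA, 18.45, 16.67 and 16.43 in SNI, and 10.51, 11.28 and 11.65 in PLM. SNI was above both other groups throughout, and Pcyt1b fell by 0.58 in PLM (SE 0.08, limma adjusted p = 0.0128; -0.33 when centred). Together with Pcyt1a it summed to 29.0 to 32.4 TPM in SNI and 20.36 to 22.05 TPM in PLM, and Pcyt1a was 43.6% ± 0.685 of that sum in SNI, 47.5% ± 0.739 in PLM and 48.9% ± 2.53 in JA (± SD).

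Pnpla7, which releases glycerophosphocholine from lysophosphatidylcholine, fell by 0.61 in PLM against SNI (SE 0.09, limma adjusted p = 0.0163), and the centred difference was -0.36 (limma adjusted p = 0.143). Pisd, which makes phosphatidylethanolamine in mitochondria from phosphatidylserine, fell by 0.44 (SE 0.07, limma adjusted p = 0.0199), with 16.97, 18.05 and 15.89 TPM in SNI and 12.15, 12.39 and 12.17 in PLM; the centred difference was -0.19 (limma adjusted p = 0.249). Both are routes to choline or to phosphatidylethanolamine outside the Kennedy pathway.

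The final step may be read beside Cept1, with genes picked for their shared reaction after their values were seen. Chpt1, the choline-specific phosphotransferase, had 20.77, 26.05 and 18.13 TPM in SNI and 11.52, 11.74 and 13.77 in PLM, a fall of 0.75 (SE 0.14, limma adjusted p = 0.0275; -0.51 and adjusted p = 0.149 when centred). The share of Cept1 in the summed TPM of Cept1, Chpt1 and Selenoi, the ethanolamine-specific enzyme, was 47.0%, 42.7% and 50.5% in SNI, 55.7%, 56.6% and 52.0% in PLM, and 42.5%, 46.7% and 53.0% in JA. PLM was above SNI in every sample, and JA overlapped both.

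In SNI versus JA, where none of the 33 was called, the smallest p-values belonged to Slc5a7, the high-affinity choline transporter of cholinergic neurons, Slc18a3, their vesicular acetylcholine transporter, and Pcyt1b. Slc5a7 had 6.96, 2.63 and 1.79 TPM in JA, 9.46, 8.69 and 10.43 in SNI, and 6.19, 6.84 and 5.28 in PLM, with a log2 fold change of 1.28 (SE 0.37, limma adjusted p = 0.614). Slc18a3 was 1.31 (SE 0.47; 0.86 without JA replicate 3) and Pcyt1b 0.42 (SE 0.16). When centred the values were 1.16, 1.19 and 0.30. The motor neuron marker list, which holds Slc5a7 and Slc18a3, summed to 227, 107 and 72.9 TPM in JA, 243, 185 and 288 in SNI, and 190, 212 and 156 in PLM. JA replicates 2 and 3 had the lowest values of both the list and Slc5a7. They were also the lowest 2 samples for the summed neuron markers, at 2643 and 3104 TPM against 4372 to 6315 TPM in the others, and none of those 8 markers was lower in SNI than in JA (median log2 fold change 0.47, centred 0.35; none called). The part of neuron or motor neuron content in these differences was not tested.

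In PLM versus JA none of the 33 was called, where 0.0195% of loci were. Enpp6, a choline-specific glycerophosphodiesterase of oligodendrocytes, had 35.01, 31.79 and 36.25 TPM in JA, 23.42, 40.24 and 19.86 in SNI, and 16.46, 15.1 and 19.39 in PLM. Its log2 fold change was -0.98 (SE 0.11, limma adjusted p = 0.106; -0.86 when centred), with all PLM samples below all others. Summed oligodendrocyte markers were 49095 to 56636 TPM in JA and 50125 to 51191 TPM in PLM. Pisd and Smpd1, the acid sphingomyelinase gene that releases phosphocholine, followed at -0.37 (SE 0.11; -0.25 when centred) and -0.34 (SE 0.11; -0.22 when centred).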

How the data were processed

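RNA of 9 samples, 3 per group by their labels, was analysed from 1 deposited table. The authors removed adaptors and low-quality reads, mapped with HISAT2 and assembled and quantified with StringTie; submitters' notes also list CASAVA, fastp 0.19.5 and GRCh38.p13, a human build, although the identifiers are of rat genes, so no coordinates of that table were used. The deposited values were read as TPM from their sums, since the table names no unit; in every sample, values filled each step of 0.01 up to 1, with no common step that whole reads scaled by depth alone would leave. TPM keeps no read depth, so no count test was run and no counting interval can be given. All 34890 loci were kept in the table, and loci averaging 1 TPM or more across a comparison (6 samples) were fitted.

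From these TPM, log2(TPM + 1) was compared in pairs of groups with limma 3.58.1 in R 4.3.3 (variance trend, no covariate, Benjamini-Hochberg adjustment over all loci tested), as deposited and after median-centring. The calls were tested on simulated data with independent noise for each gene and no shift shared by the genes of a sample. That test therefore cannot show how the scaling of the samples affects the calls. The members, the 39 other pathway genes and the marker lists were chosen with earlier results of these data known. Other pathway genes were named as the 3 with the smallest p per comparison, and the nearest loci were given for Etnppl (5, of which 1 is not reported here) and the single nearest for Slc44a5. With 3 samples per group an exact two-sided permutation test cannot go below 0.1. Alternatives were a pseudocount of 0.1, no filter, at least 1 TPM in every sample, quantile normalization, TPM rescaled without 13 mitochondrial protein genes, all 9 samples in 1 fit, the replicate number as a block, each sample left out, and the study's thresholds (unadjusted p under 0.05 and absolute log2 fold change above 1). Leaving out the sample of each group with the most Schwann cell marker TPM was chosen after seeing the data. Promoter windows came from RefSeq, GRCr8.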

Additional observations from a re-analysis of the deposited data

How the results depend on the processing

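Calls in PLM versus SNI depended on the scaling and the sample number, and depth is unknown for every sample. The 7 of the 10 genes called became 0 with quantile normalization, 1 with TPM rescaled without mitochondrial protein genes, 3 with all 9 samples in the fit, 1 with the study's thresholds, 0 without the samples of most Schwann cell marker TPM, and 0 to 4 with a sample left out, where fewer samples enter the fit. The 12 other pathway genes called became 7 with no filter on low values, 0 with quantile normalization, 1 with the rescaled TPM, 1 with all 9 samples, 0 with the study's thresholds, 0 without the samples of most Schwann cell marker TPM, and 0 to 11 with a sample left out. Of all loci, 1.00% were called with quantile normalization, 1.76% with the rescaled TPM, 3.14% with all 9 samples, 5.73% with no filter, 1.65% with the study's thresholds, 0.0782% without the samples of most Schwann cell marker TPM, and 1.78% to 9.70% with a sample left out. When centred, the 0 called of the 10 became 2 with at least 1 TPM in every sample (1.60% of loci) and 1 with the study's thresholds (1.07% of loci). In SNI versus JA the 0 other pathway genes became 2 with the study's thresholds, as deposited (0.688% of loci) and when centred (0.534%). Apart from the construction named, the cause was not tested.

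With the replicate number as a block, 1 of the 10 and 0 of the other pathway genes were called in PLM versus SNI, against 0.982% of loci. Deviations of same-numbered samples correlated at -0.05 to 0.13 (median -0.01), and those of differently numbered samples at -0.19 to 0.14 (median -0.02). Of the 9 samples, 4 were closest to their own number. The labels do not say whether same-numbered samples were handled together, and this was not tested further.

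Over the 10 genes and 3 comparisons, 236 log2 fold changes under other settings kept their sign and their side of the threshold, 45 lost the threshold, 1 gained it and 18 changed sign. With a sample left out the numbers were 143, 30, 0 and 7. Only the 7 genes called in PLM versus SNI could lose the threshold, and most of those kept were never called. Of the 6 fits with a sample left out, Etnk1, Pcyt1a and Slc44a2 lost their call in all 6. Pcyt2 lost it in 5, Slc44a5 in 3, and Etnppl and Chka in 2 each. Differences that changed sign were small. In PLM versus SNI, Slc44a1 became 0.047 with quantile normalization, 0.0099 with rescaled TPM and 0.11 centred, and Cept1 0.044 with quantile normalization and 0.070 centred. In SNI versus JA, quantile normalization gave -0.084 for Etnk2, -0.11 for Slc44a1, -0.029 for Slc44a2, -0.063 for Pisd and -0.051 for Smpd1. Rescaled TPM gave -0.039 for Etnk2, -0.062 for Slc44a1, -0.019 for Pisd and -0.018 for Smpd1, and centring gave -0.079 for Etnk2, -0.094 for Slc44a1, -0.024 for Slc44a2, -0.055 for Pisd and -0.050 for Smpd1. Leaving out the samples of most Schwann cell marker TPM gave -0.051 for Etnk2, -0.019 for Pcyt1a and -0.062 for Pisd. With a sample left out, SNI versus JA ranged from -0.037 to 0.094 for Etnk2, -0.070 to 0.070 for Pcyt2, -0.017 to 0.22 for Pcyt1a, -0.010 to 0.079 for Slc44a1, -0.0049 to 0.16 for Slc44a2 and -0.019 to 0.17 for Pisd. In PLM versus JA, Etnk1 became 0.0077 with quantile normalization and 0.036 centred and ranged from -0.17 to 0.044 with a sample left out, and Slc44a1 became 0.014 centred.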

Other observations

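The locus closest to Slc44a2 over the 9 centred samples, outside the rule for nearest loci and picked after its values were seen, was Hmgcs1, a gene of cholesterol synthesis, with a root mean square difference of 0.0633 against 0.195 for the deviations of Slc44a2 itself. Hmgcs1 averaged 333 TPM in JA, 330 in SNI and 246 in PLM.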
